A study of Mus musculus with 16 samples.

Results

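A set of 10 genes of the Polycomb system was followed across 16 libraries of mouse striatum: the Polycomb repressive complex 2 (PRC2) genes Ezh1, Ezh2, Eed, Suz12 and Jarid2, the Polycomb repressive complex 1 (PRC1) genes Rnf2, Ring1, Bmi1 and Cbx7, and the opposing demethylase gene Kdm6b. They were taken by symbol and make up 10 of the 24421 genes in the count tables. The mice were 13 months old at harvest, and the 4 groups of 4 mice combine a genotype with an injected virus. Con+Con are control mice given the control virus, Con+Foxp2 are control mice given the Foxp2 virus, BACHD+Con are BACHD mice given the control virus, and BACHD+Foxp2 are BACHD mice given the Foxp2 virus. The BACHD line models Huntington disease with mutant human huntingtin delivered on a bacterial artificial chromosome. Foxp2 encodes a forkhead transcription factor present in striatal projection neurons. All 16 mice received a virus, so no group shows uninjected striatum, and the virus type, its promoter, the cells it reaches and the strain background are not stated in the labels.

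Polycomb proteins keep developmental genes silent in cells that should not use them. PRC2 methylates lysine 27 of histone H3 through Ezh1 or Ezh2 together with Eed and Suz12, and Jarid2 helps to bring the complex to chromatin. PRC1 ubiquitinates histone H2A through Rnf2 or Ring1 with a Pcgf partner such as Bmi1, and a Cbx subunit such as Cbx7 reads the methyl mark. Kdm6b, also called Jmjd3, removes methyl groups from the same lysine. In adult striatal neurons, PRC2 is known for keeping genes of other cell fates silent and for sustaining survival, and Ezh1 is known as the form of the enzyme that predominates in cells that no longer divide.

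Kdm6b was the single member of the 10 with a called change (edgeR adjusted p under 0.05, as for 1.05% of all tested genes), and it was lower under the Foxp2 virus. That call was lost in 7 of 16 fits that leave out 1 library. It was also lost without the 3 libraries lowest in cortical markers, all from control-virus mice, in a fit chosen after seeing the data. No member was called between BACHD and control mice. The PRC2 core gene Suz12 had a fitted log2 fold change of -0.34 under the Foxp2 virus, against -0.39 for Kdm6b, and did not pass the adjustment over all genes.

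Gene-assigned reads numbered 2660395 to 3669748 per library, and a floor of 3 reads corresponded to 0.819 to 1.16 CPM, a count scaled to a common library total after trimmed mean of M values scaling. The delivered gene matched the virus labels. Foxp2 was at 118 ± 26.7 CPM (SD, n = 4) in Con+Con, 4010 ± 431 in Con+Foxp2, 119 ± 28.6 in BACHD+Con and 1600 ± 288 in BACHD+Foxp2, so its level under the Foxp2 virus was lower in BACHD than in control mice. The 15 markers of striatal projection neurons were read in every group, with 0 of 15 at 0 reads. Markers of excitatory cortical neurons, which a striatal dissection can include, varied within groups, and BACHD+Con mouse 2, BACHD+Con mouse 3 and Con+Con mouse 4 had the lowest sums at 275.8, 282.4 and 358.2 CPM. Values of Kdm6b, Suz12, Ezh2, Ring1, the Ezh1 to Ezh2 ratio and the Polycomb target list are given with and without these 3 libraries. All 10 members passed the filter on low counts that left 13563 genes to test. In bulk tissue, fewer cells of a type and less RNA per cell cannot be told apart.

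The starts of 3 PRC2 genes, Suz12, Ezh1 and Ezh2, are shown first. None of the 3 was called in any comparison. RefSeq promoter windows on GRCm38.p6 were matched for 9 of the 10 members, all but Kdm6b. There were 10 windows in all, and the 250 bases before the start were read. The sequences run 5′ to 3′ on the gene's own strand, and capitals mark CG dinucleotides. The window of Suz12 is chr11:79992856-79993105 on the plus strand, that of Ezh1 is chr11:101226464-101226713 on the minus strand, and that of Ezh2 is chr6:47595031-47595280 on the minus strand. The Ezh2, Jarid2 and Cbx7 windows lie wholly inside the annotated gene bounds given below, so the start they precede is internal to the gene.
Suz12: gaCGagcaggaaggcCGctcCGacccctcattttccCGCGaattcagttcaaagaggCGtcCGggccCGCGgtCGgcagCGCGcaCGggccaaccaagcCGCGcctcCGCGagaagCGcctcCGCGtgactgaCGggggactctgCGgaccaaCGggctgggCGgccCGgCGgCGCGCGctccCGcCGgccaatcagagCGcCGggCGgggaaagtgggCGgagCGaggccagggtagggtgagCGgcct
Ezh1: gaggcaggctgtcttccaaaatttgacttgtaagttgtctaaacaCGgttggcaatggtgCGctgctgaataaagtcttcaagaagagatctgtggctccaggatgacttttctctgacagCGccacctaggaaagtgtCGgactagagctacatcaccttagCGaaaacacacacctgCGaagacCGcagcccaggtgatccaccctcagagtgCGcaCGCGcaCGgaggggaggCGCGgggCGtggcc
Ezh2: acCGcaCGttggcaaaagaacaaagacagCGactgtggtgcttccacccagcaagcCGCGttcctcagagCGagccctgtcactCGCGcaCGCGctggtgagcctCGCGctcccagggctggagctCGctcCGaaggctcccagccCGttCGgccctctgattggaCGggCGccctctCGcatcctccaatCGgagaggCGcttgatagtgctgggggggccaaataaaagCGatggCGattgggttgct
The Suz12 window holds 37 CG dinucleotides at 73.6% GC, the Ezh2 window 23 at 63.6% and the Ezh1 window 14 at 55.2%. The median over 32841 windows of the same length was 6 CG dinucleotides at 52.4% GC. All 10 windows of the members had over 50% GC and an observed to expected CG ratio over 0.6, as 30.8% of all windows did. The forkhead core motif TGTTTAC, searched on both strands, was found in 1 of the 10 windows, that of Eed, and in 3.17% of all windows. The letters CAAATT, reported as a FOXP2 site and likewise searched on both strands, were found in 2 of the 10, those of Ezh1 and Cbx7, and in 9.8% of all windows. The matches are descriptions of the letters in these windows.

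Within PRC2, the catalytic subunits stood at unequal levels. Levels were compared between genes as CPM per kilobase of annotated exon. Ezh1 (chromosome 11, 101191115 to 101226463, minus strand, GRCm38) was at 10.7 ± 1.53 CPM per kilobase (SD, n = 16) and Ezh2 (chromosome 6, 47530139 to 47595341, minus strand) at 3.38 ± 0.98. The per-length level of Ezh1 was above that of Ezh2 in every library, with a ratio of 1.91 to 5.95 and a mean of 3.44 ± 1.21 (SD, n = 16). The ratio depends on the length used, and by the longest annotated transcript its mean was 2.54. Its group means were 3.33 ± 1.8 in Con+Con, 4.64 ± 0.701 in Con+Foxp2, 2.71 ± 0.535 in BACHD+Con and 3.07 ± 0.641 in BACHD+Foxp2 (SD, n = 4 each). The 4 Con+Foxp2 mice had ratios of 3.66, 5.31, 4.71 and 4.9, and the 4 BACHD+Foxp2 mice had 2.66, 3.57, 3.66 and 2.39. These groups met at 3.66 to the precision printed. An exact two-sided permutation test of the log2 ratio between them gave p = 0.0286, the smallest that 4 against 4 mice allow, and 0.114 after adjustment over the 4 pairwise comparisons. Without the 3 libraries lowest in cortical markers, the mean ratio was 3.49 in Con+Con (n = 3) and 2.74 in BACHD+Con (n = 2), and the Foxp2-virus groups hold none of them. The other 3 comparisons of the ratio gave exact permutation p of 0.143, 0.457 and 0.743.

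The core scaffold genes Suz12 (chromosome 11, 79993106 to 80034123, plus strand) and Eed (chromosome 7, 89954654 to 89980983, minus strand) were at 11.4 ± 1.93 and 5.49 ± 0.929 CPM per kilobase (SD, n = 16). Jarid2 (chromosome 13, 44729474 to 44921643, plus strand) was at 8.3 ± 1.36. Of the PRC1 genes, the Pcgf subunit Bmi1 (chromosome 2, 18677018 to 18686629, plus strand) was at 10.4 ± 2.11, the chromodomain reader Cbx7 (chromosome 15, 79915807 to 79971119, minus strand) at 7.46 ± 1.13, and the ubiquitin ligase Rnf2, or Ring1B (chromosome 1, 151458004 to 151500955, minus strand), at 7.25 ± 1.39. Ring1, or Ring1A (chromosome 17, 34020792 to 34024680, minus strand), was lowest at 3.37 ± 1.24. Kdm6b (chromosome 11, 69398508 to 69413675, minus strand) was highest at 16 ± 2.89.

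Not every step of this order is larger than the spread between libraries. Kdm6b was above Suz12 in 16 of 16 libraries, Rnf2 above Eed in 14 of 16 and Eed above Ezh2 in 15 of 16. Suz12 was above Ezh1 in 7 of 16 libraries, Ezh1 above Bmi1 in 8, Cbx7 above Rnf2 in 7 and Ezh2 above Ring1 in 9, so these neighbours did not differ beyond their spread. Bmi1 was above Jarid2, and Jarid2 above Cbx7, in 12 of 16 libraries each. With the longest transcript as the length, Ezh1 came first at 18.9 ± 2.7 CPM per kilobase, Kdm6b second at 16.7 ± 3.02, and Ring1 stayed last at 4.29 ± 1.58.

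Relatives of the members spanned a wide range of levels. Rbbp7, a histone-binding subunit of PRC2, was at 28.9 ± 4.76 CPM per kilobase (SD, n = 16) and its paralog Rbbp4 at 8.13 ± 1.42. Among the Cbx readers of PRC1, Cbx6 at 20.2 ± 2.06 was above Cbx7, and Cbx8 at 1.91 ± 0.866 and Cbx2 at 0.624 ± 0.278 were below it. Among the Pcgf subunits, Bmi1 was followed by Pcgf2 at 8.89 ± 1.87 and Pcgf3 at 6.52 ± 0.764, with Pcgf6, Pcgf1 and Pcgf5 at 2.27 ± 0.878, 2.24 ± 1.74 and 0.868 ± 0.353. By the longest transcript the first place turned, with Pcgf2 at 12.6 ± 2.66 and Bmi1 at 11.4 ± 2.33. Kdm6a, the X-linked paralog of Kdm6b, was at 5 ± 1.19, and Uty, the Y-linked copy, at 5.11 ± 1.14. Because Kdm6a and Uty are similar in sequence, how their reads were split is uncertain.

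**Figure D1:**
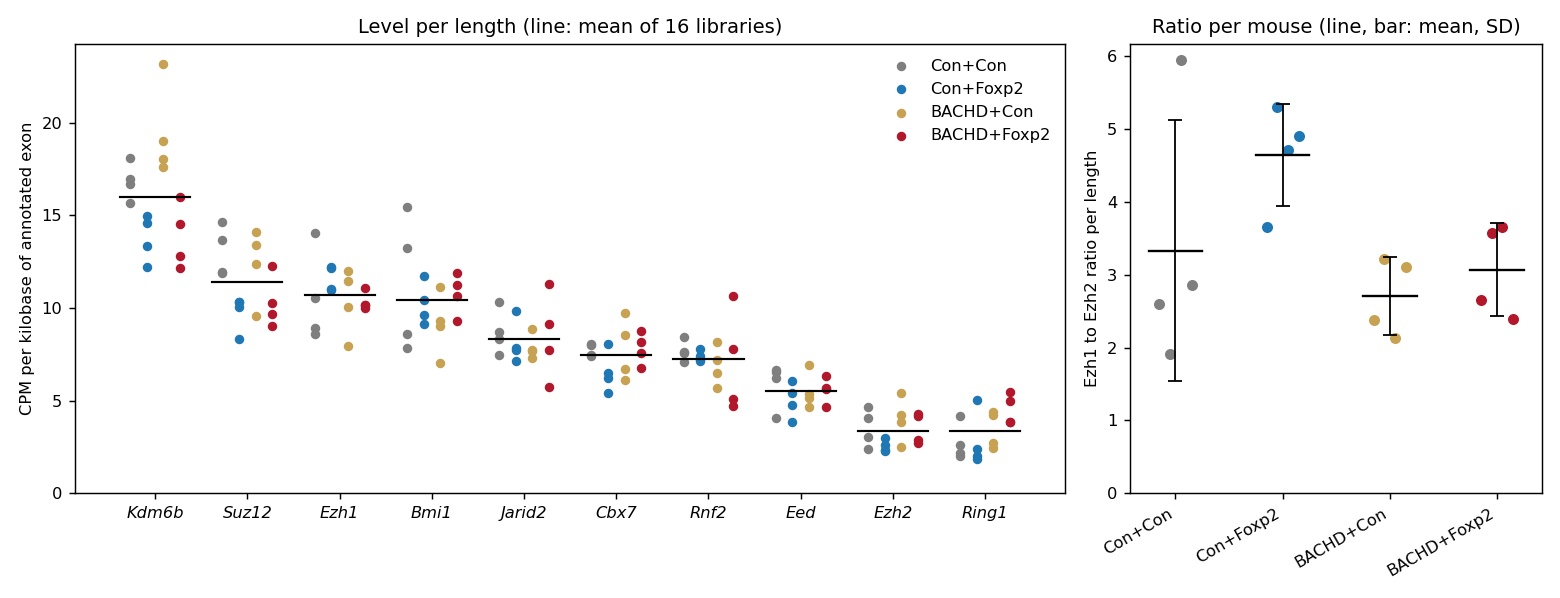
Left, CPM per kilobase of annotated exon (y axis) for the 10 Polycomb system genes (x axis), 1 point per mouse, coloured by group, with the mean of 16 libraries as a line. Right, the Ezh1 to Ezh2 ratio of these values per mouse, with the group mean and SD. Kdm6b is highest at a mean of 16, Ezh2 and Ring1 are lowest at 3.38 and 3.37, and the ratio is above 1 in every mouse.

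The first comparison asked what the Foxp2 virus does to these genes in striatum, averaged over both genotypes. All genes were tested with edgeR's quasi-likelihood test, p was adjusted by Benjamini-Hochberg over the 13563 tested genes, and a gene is called at an adjusted p under 0.05. In this comparison 1 of the 10 members was called, Kdm6b, against 1.05% of all tested genes in either direction and 0.634% in the lower direction. The median log2 fold change of the 10 members was -0.06, with 6 lower and 4 higher, and that of all tested genes was 0.00 to 2 decimals. At an unadjusted p under 0.05 by edgeR stood 2 of 10 members, Kdm6b and Suz12, and 10.8% of all tested genes.

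Kdm6b, the demethylase, was lower in every mouse given the Foxp2 virus than in any mouse of the same genotype given the control virus. The Con+Con mice were at 118, 109, 116 and 126 CPM and the Con+Foxp2 mice at 85, 92.6, 104 and 101. The BACHD+Con mice were at 132, 161, 126 and 123 CPM and the BACHD+Foxp2 mice at 84.5, 89, 101 and 111. The highest value under the Foxp2 virus, 111, lay above the lowest Con+Con value, 109, so the groups were apart within each genotype and not across genotypes. Averaged over genotypes Kdm6b fell by 0.39 on the log2 scale (SE 0.0893, 95% interval -0.57 to -0.20), or by 23.7%, with adjusted p = 0.0277 by edgeR's quasi-likelihood test (Benjamini-Hochberg). Non-overlapping groups, lower in both genotypes, occurred in 0.332% of the tested genes.

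The size of the Kdm6b difference was larger in BACHD mice, and the difference between genotypes was not resolved. Its log2 fold change was -0.29 in control mice (SE 0.126, adjusted p = 0.64) and -0.49 in BACHD mice (SE 0.126, adjusted p = 0.168), both by edgeR's quasi-likelihood test (Benjamini-Hochberg). The interaction of genotype and virus was -0.20 on the log2 scale (95% interval -0.57 to 0.17, unadjusted p = 0.278 by edgeR). Foxp2 under its virus was also lower in BACHD mice, so genotype and Foxp2 level cannot be told apart here. In the authors' deposited tables Kdm6b has a log2 fold change of -0.26 in control mice (adjusted p = 0.548, as deposited) and -0.42 in BACHD mice (adjusted p = 0.226, as deposited by the authors from DESeq2).

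The Kdm6b call sat near the threshold. With 1 library left out at a time, the log2 fold change stayed between -0.42 and -0.34, and edgeR's adjusted p ran from 0.0196 to 0.0787. The call was lost in 7 of the 16 fits, those without Con+Con mouse 1 (adjusted p = 0.0502 by edgeR), Con+Con mouse 4 (0.0761), Con+Foxp2 mouse 1 (0.0643), Con+Foxp2 mouse 2 (0.0638), BACHD+Con mouse 2 (0.0787), BACHD+Foxp2 mouse 1 (0.0679) or BACHD+Foxp2 mouse 2 (0.051). Without the 3 libraries lowest in cortical markers, it was -0.33 with adjusted p = 0.319 by edgeR, and the genes called went from 143 to 61. All 3 are control-virus mice. They include the highest Kdm6b value of each control-virus group, 126 CPM in Con+Con mouse 4 and 161 in BACHD+Con mouse 2. Without the 3 libraries the log2 fold change was -0.25 in control mice and -0.40 in BACHD mice, with adjusted p of 0.949 and 0.767 by edgeR.

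Cell type markers moved with the same contrast, and their part in the Kdm6b difference was not tested. All 15 projection neuron markers were lower under the Foxp2 virus averaged over genotypes, with 0 of 15 called and summed levels of 4480 to 8920 CPM in Con+Con, 4400 to 5500 in Con+Foxp2, 5120 to 8180 in BACHD+Con and 4780 to 6550 in BACHD+Foxp2. Of 12 interneuron markers, 11 were lower and 3 called, the cholinergic genes Chat and Slc5a7 and the vesicular glutamate transporter Slc17a8. Their summed level was 467 to 560 CPM in Con+Con, 332 to 423 in Con+Foxp2, 487 to 540 in BACHD+Con and 385 to 490 in BACHD+Foxp2. Of 10 astrocyte markers 8 were higher and 3 called higher (Gfap, Aqp4 and Slc1a3), with sums of 7250 to 8860, 8160 to 8590, 6820 to 7340 and 7280 to 8510 CPM in the same order of groups. All 11 tested microglia markers were higher and 1, Ctss, was called, with sums of 277 to 337, 328 to 408, 247 to 302 and 334 to 398 CPM for the 12 listed. Of 11 cortical markers, 8 were higher and 1, Lamp5, was called lower, with sums of 358 to 1850, 538 to 1400, 276 to 1500 and 840 to 1470 CPM. All 10 oligodendrocyte markers were lower on average, with 0 called and sums of 6040 to 9360, 4140 to 6500, 5070 to 6920 and 2900 to 8090 CPM, and 8 of 10 were higher in BACHD mice alone. Of 10 choroid plexus and ependymal markers 9 were lower and 0 called, with a median log2 fold change of -0.50 and sums of 254 to 7550, 240 to 3070, 124 to 10700 and 184 to 5030 CPM. BACHD+Con mouse 2, highest in Kdm6b at 161 CPM, had the choroid sum of 10730 CPM, and the other 3 mice of its group had 124.4 to 315.3. The next highest choroid sums were 7554 CPM in Con+Con mouse 1 and 5031 in BACHD+Foxp2 mouse 3. Kdm6b was at 118 and 101 CPM in these mice, in neither case the highest of the group. In each of these lists 0 markers were at 0 reads in any group.

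Kdm6b is also known as a gene that responds to neuronal activity and inflammation. Of 11 activity-induced genes listed, 5 were higher and 6 lower under the Foxp2 virus averaged over genotypes, 0 were called, and their median log2 fold change was -0.02. The microglia markers are given above. Whether activity or inflammation bears on the Kdm6b difference was not tested. The transcripts of Kdm6b have 59.6% GC, in the top decile of tested genes, and that decile had a median log2 fold change of 0.00 to 2 decimals. An antisense gene, Kdm6bos, shares 286 bases, or 4.11%, of the exonic bases of Kdm6b, was not analysed here, and cannot be told apart from it if the counting ignored strand. The other members share 0% to 6.82% of their exonic bases with overlapping genes, most in Eed.

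**Figure D2:**
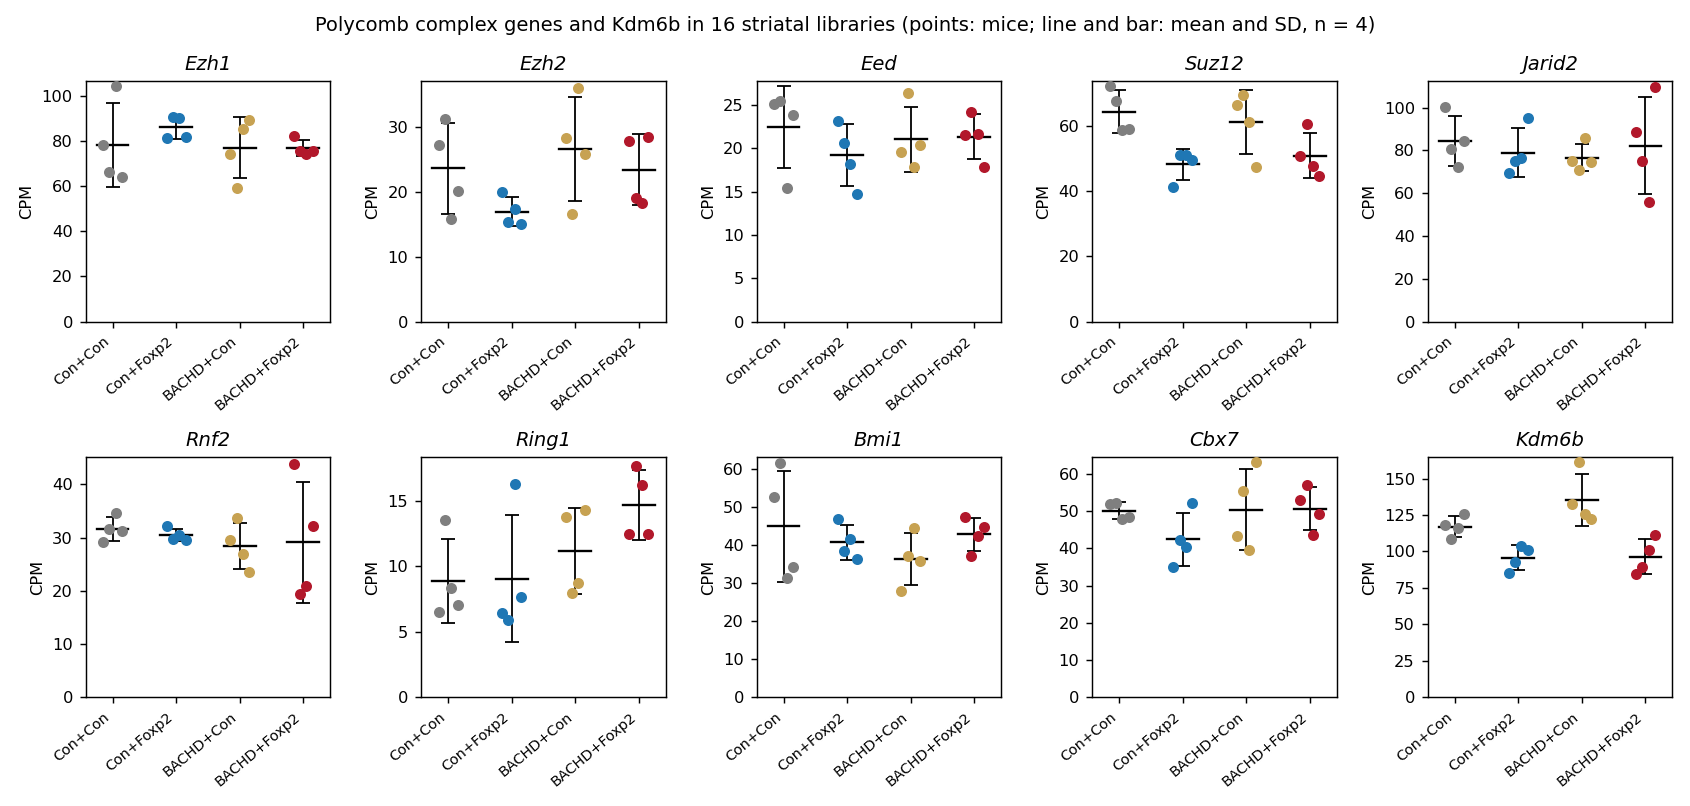
CPM (y axis, from 0, with its own scale for each gene) of the 10 Polycomb system genes in the 4 groups (x axis). Points are mice, and lines and bars are the mean and SD of 4. Kdm6b has 85 to 104 CPM in Con+Foxp2 against 109 to 126 in Con+Con, and 84.5 to 111 in BACHD+Foxp2 against 123 to 161 in BACHD+Con.

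Suz12, the PRC2 core subunit without which the complex is unstable, was second among the members by p. The Con+Con mice were at 72.3, 67.6, 58.8 and 59.1 CPM and the Con+Foxp2 mice at 41.2, 51, 51 and 49.7. These groups did not overlap. The BACHD+Con mice were at 66.3, 69.7, 61.1 and 47.4 CPM and the BACHD+Foxp2 mice at 50.8, 60.6, 47.8 and 44.7, and these groups overlapped through BACHD+Con mouse 4. The log2 fold change averaged over genotypes was -0.34 (SE 0.112, 95% interval -0.57 to -0.11), with adjusted p = 0.198 by edgeR's quasi-likelihood test (Benjamini-Hochberg), so Suz12 was not called. Without the 3 libraries lowest in cortical markers it was -0.31 (adjusted p = 0.609 by edgeR). With all libraries it was -0.42 in control mice (SE 0.158) and -0.26 in BACHD mice (SE 0.158), with adjusted p of 0.523 and 0.755 by edgeR. In control mice the groups of 2 of the 10 members, Suz12 and Kdm6b, did not overlap with the Foxp2 virus lower, against 2.29% of all tested genes, and in BACHD mice those of 1 of 10, Kdm6b, against 2.36%.

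Ezh2, the catalytic subunit typical of dividing cells, was at 27.1, 31.2, 15.8 and 20.1 CPM in Con+Con and at 20, 15.4, 17.2 and 15 in Con+Foxp2. In BACHD+Con it was at 28.2, 16.5, 35.9 and 25.8 CPM and in BACHD+Foxp2 at 27.8, 19, 18.2 and 28.4. The groups overlapped in both genotypes, and 1 BACHD+Con mouse, at 16.5, was below every BACHD+Foxp2 mouse. The log2 fold change averaged over genotypes was -0.33 (SE 0.186, 95% interval -0.72 to 0.05, adjusted p = 0.547 by edgeR's quasi-likelihood test, Benjamini-Hochberg), and without the 3 libraries lowest in cortical markers it was -0.38 (adjusted p = 0.741 by edgeR). With 47 to 107 reads per library, Ezh2 varied with a CV of 28.9% over the 16 libraries, where counting error alone gives 12.1%.

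Ezh1, the other catalytic subunit, was at 78.5, 66.3, 104 and 64 CPM in Con+Con and at 81.5, 91, 90.5 and 81.9 in Con+Foxp2. It was at 74.6, 59.1, 85.3 and 89.4 CPM in BACHD+Con and at 82.3, 75.6, 74.3 and 75.6 in BACHD+Foxp2. Both control-virus groups spread over more than the Foxp2-virus groups, which lie within them. Its log2 fold change averaged over genotypes was 0.07, with a 95% interval of -0.16 to 0.30. A change of the size fitted for Kdm6b lies outside that interval.

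The remaining members had overlapping groups in both genotypes and intervals that include 0. Averaged over genotypes, the log2 fold change under the Foxp2 virus was -0.10 for Eed (95% interval -0.44 to 0.23) and 0.00 for Jarid2 (-0.25 to 0.25). Among the PRC1 genes it was -0.01 for Rnf2 (-0.34 to 0.31), 0.21 for Ring1 (-0.32 to 0.74), 0.05 for Bmi1 (-0.25 to 0.35) and -0.11 for Cbx7 (-0.36 to 0.14). Over the 16 mice Eed ran from 14.7 to 26.4 CPM on 48 to 85 reads, and Jarid2 from 55.7 to 110 CPM on 162 to 349 reads. The spread of the PRC1 genes was uneven between groups. Rnf2 ranged from 19.3 to 43.9 CPM in BACHD+Foxp2 and from 29.5 to 32.2 in Con+Foxp2, and Bmi1 from 31.2 to 61.4 in Con+Con. Cbx7 stayed within 47.9 to 52.1 CPM in Con+Con and ran from 39.6 to 63.2 in BACHD+Con.

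Within single genotypes no member was called for the virus. In control mice 0 of 10 were called, against 0.229% of tested genes, with 8 of 10 lower, a member median of -0.18 on the log2 scale and 2 members at an unadjusted p under 0.05 by edgeR (Suz12 and Kdm6b), where 7.04% of tested genes were. In BACHD mice 0 of 10 were called, against 0.243%, with 4 of 10 lower, a member median of 0.01 and 1 member (Kdm6b) at an unadjusted p under 0.05 by edgeR, where 7.73% of tested genes were. Both genotypes had all-gene medians of 0.00 to 2 decimals. The interaction gave 0 of 10 members called and 0% of tested genes called by edgeR, with 0 members and 3.8% of genes (516) at an unadjusted p under 0.05, and DESeq2 called 3 genes.

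The second question was whether these genes differ between BACHD and control mice. Averaged over viruses, 0 of 10 members were called by edgeR, against 0.0369% of tested genes, and 0 of 10 had an unadjusted p under 0.05, where 4.05% of tested genes did. Under the control virus 0 of 10 were called, against 0.0147%, and under the Foxp2 virus 0 of 10, against 0.059%. Under the Foxp2 virus, and so in the average over viruses, genotype cannot be told apart from the lower Foxp2 level in BACHD mice. The BACHD and control groups overlapped for all 10 members under either virus. Groups that do not overlap were found with BACHD lower in 1.24% and higher in 1.19% of tested genes under the control virus, and in 1.6% and 1.4% under the Foxp2 virus.

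Ring1, the less expressed of the PRC1 ubiquitin ligases, had the largest fitted genotype difference. It was at 6.49, 13.5, 8.36 and 7.07 CPM in Con+Con and at 6.44, 5.89, 16.2 and 7.64 in Con+Foxp2. In BACHD+Con it was at 13.7, 7.93, 8.73 and 14.3 CPM and in BACHD+Foxp2 at 12.4, 17.7, 16.2 and 12.4. Under the control virus 2 control mice, at 8.36 and 13.5 CPM, lay within the range of the BACHD mice, and under the Foxp2 virus 1 did, at 16.2. The log2 difference, BACHD over control, was 0.51 (95% interval -0.02 to 1.04, adjusted p = 0.999 by edgeR's quasi-likelihood test (Benjamini-Hochberg)), and it rests on 18 to 54 reads per library. Without the 3 libraries lowest in cortical markers it was 0.63 (adjusted p = 0.969 by edgeR).

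Ezh2 followed with a genotype difference of 0.32 on the log2 scale (95% interval -0.07 to 0.71). The other 8 members had fitted genotype differences of at most 0.13 in size. Their intervals bound what this design could miss: for Suz12 the 95% interval was -0.23 to 0.23, for Ezh1 -0.32 to 0.14, for Kdm6b -0.07 to 0.30 and for Jarid2 -0.29 to 0.21. The remaining intervals reached farther, at -0.44 to 0.21 for Rnf2, -0.42 to 0.18 for Bmi1, -0.12 to 0.38 for Cbx7 and -0.31 to 0.37 for Eed. Under the control virus alone, the fitted genotype difference was 0.33 for Ring1, -0.31 for Bmi1 (95% interval -0.73 to 0.12) and 0.21 for Kdm6b. In the authors' deposited table of that contrast, BACHD+Con against Con+Con, Ring1 has a log2 fold change of 0.13 and Kdm6b of 0.18, each with an adjusted p of 1. Bmi1 has -0.19 there, the largest in size of these values.

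**Figure D3:**
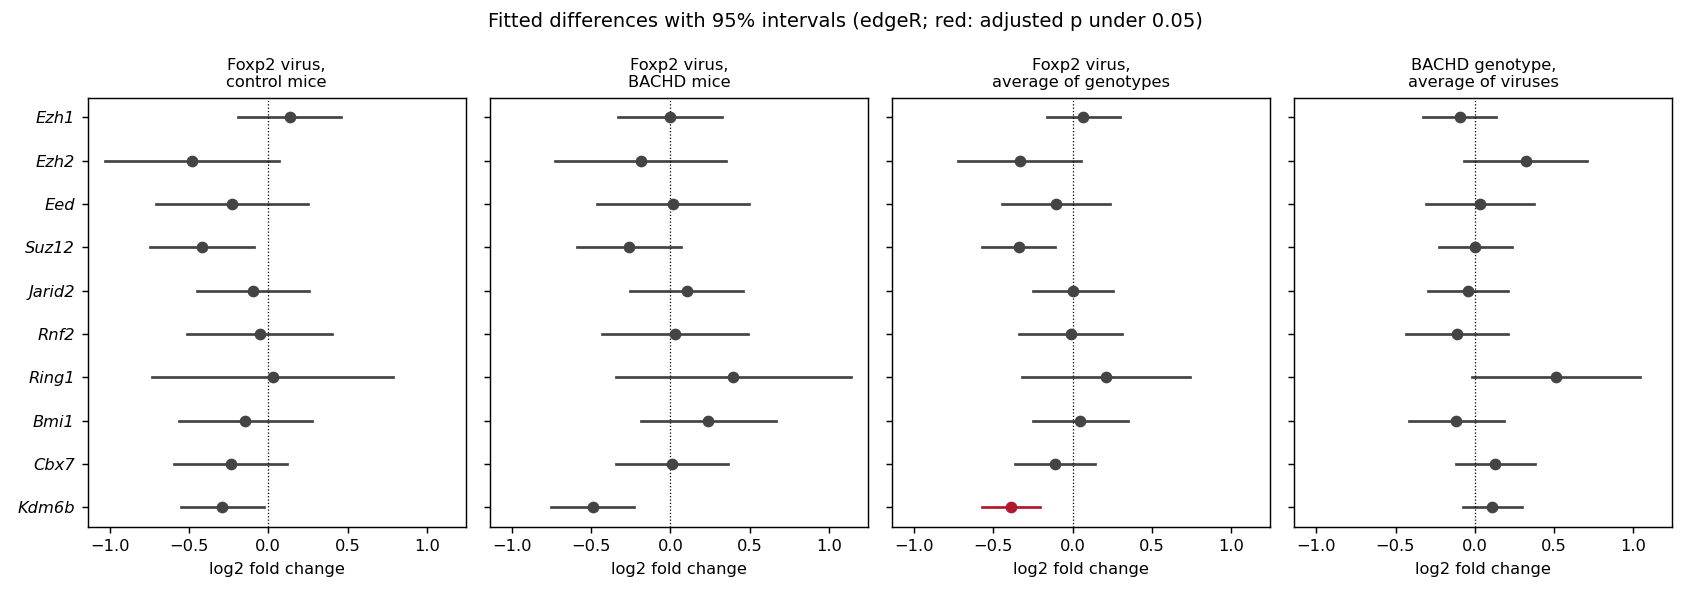
Fitted log2 fold changes (x axis) of the 10 Polycomb system genes (y axis) with 95% intervals, for the Foxp2 virus over the control virus in control mice, in BACHD mice and averaged over genotypes, and for BACHD over control mice averaged over viruses. Red marks an edgeR adjusted p under 0.05, reached by Kdm6b alone, at -0.39 for the average virus effect.

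The rest of the Polycomb system was read from lists written out by name. Of 10 other PRC2 subunits and accessory genes, 9 were tested, and under the Foxp2 virus averaged over genotypes 4 were higher, 5 lower and 0 called, with a median log2 fold change of -0.15. The lowest p in that list belonged to the accessory genes Phf1 and Aebp2, at -0.26 and -0.18, with adjusted p of 0.585 and 0.59 by edgeR. Of 24 other PRC1 genes 23 were tested, 14 were higher, 9 lower and 0 called, with a median of 0.06. L3mbtl2 and Bcor, subunits of variant PRC1 complexes, had the lowest p there at -0.40 and -0.21, with adjusted p of 0.199 and 0.587 by edgeR.

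Nor was another gene called among those that act against Polycomb marks. Of 8 other opposing enzymes and their partners, 4 were higher, 4 lower and 0 called, with a median log2 fold change of 0.01. Asxl3 and Mysm1, a cofactor and an enzyme of H2A deubiquitination, had the lowest p, with log2 fold changes of 0.27 and 0.11. The lowest adjusted p of that list was 0.558 by edgeR. The paralogs of Kdm6b had fitted values of 0.04 (Kdm6a) and -0.07 (Uty). Of 12 trithorax and COMPASS genes, which methylate histone H3 lysine 4 or keep genes active, 5 were higher, 7 lower and 0 called, with a median of -0.01. The methyltransferases Kmt2a and Kmt2d had the lowest p of that list at -0.20 and -0.19, with adjusted p of 0.18 and 0.254 by edgeR's quasi-likelihood test (Benjamini-Hochberg). In the genotype comparison averaged over viruses, 0 genes of these 4 lists were called.

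**Figure D4:**
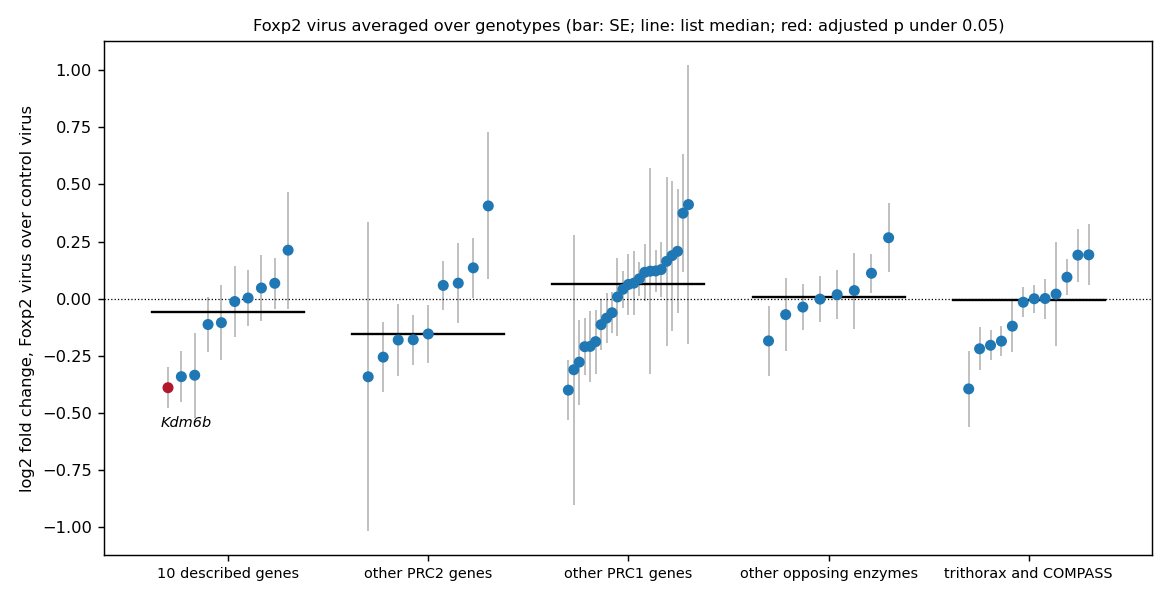
Log2 fold change for the Foxp2 virus over the control virus, averaged over genotypes (y axis), for the 10 described genes and the tested genes of 4 lists (x axis). Points are genes, grey bars the SE, black lines the list median, and red marks an edgeR adjusted p under 0.05. Kdm6b at -0.39 is the single red point, and the medians lie between -0.15 and 0.06.

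Genes that Polycomb is known to silence in neurons were followed as a list of 46 developmental transcription factor and cell cycle inhibitor genes (Hox, Pax, Gata, Tbx and others). Most were at or near the floor. In Con+Con 29 of 46 had 0 reads over the 4 mice, in Con+Foxp2 20, in BACHD+Con 29 and in BACHD+Foxp2 22, and 6 of 46 passed the filter. The summed level of all 46 was 5.21 to 14.8 CPM in Con+Con, 40.9 to 85.1 in Con+Foxp2, 6.19 to 16.5 in BACHD+Con and 21 to 36.7 in BACHD+Foxp2, so the Foxp2-virus mice were above the control-virus mice of either genotype. Without the 3 libraries lowest in cortical markers, the control-virus sums were 8.04 to 14.8 CPM in Con+Con and 6.19 to 10.8 in BACHD+Con. These reads were few, at 117, 723, 118 and 334 over the 4 groups in the same order. How other near-silent genes moved is not given here, so the sums are not a result about Polycomb targets in particular.

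Genes this low pass the filter only through the groups where they are high, so their reads are given as a description, with no test. Pou4f1, a homeobox gene of sensory and habenular neurons, had 9 reads in Con+Con, 126 in Con+Foxp2, 0 in BACHD+Con and 99 in BACHD+Foxp2. Cdx2, a homeobox gene of the intestine, had 0, 65, 3 and 41 reads in the same order. Pax7, a paired box gene of muscle precursors and dorsal midbrain, had 0, 111, 5 and 0 reads, so among the Foxp2-virus groups it was read in control mice and not in BACHD mice. The Foxp2-virus groups also differ in Foxp2 level. Without these 3 genes, left out after their values were seen, the sum of the other 43 was 4.84 to 14.5 CPM in Con+Con, 24.1 to 44.8 in Con+Foxp2, 6.19 to 15.5 in BACHD+Con and 13.4 to 17.9 in BACHD+Foxp2, and the BACHD groups then overlapped. Of the other 43, Eomes had the most reads in Con+Foxp2 at 159, followed by Lhx9 at 69, so few genes carry much of that sum. Eomes had 24 reads in BACHD+Con. Lhx9 had 31 in Con+Con, 9 in BACHD+Con and 34 in BACHD+Foxp2. Whether the levels of Kdm6b, Suz12 or other members bear on the listed genes was not tested.

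Across the 16 libraries, the members did not vary as a block. Pearson's r of log2 CPM between members ran from -0.68 for Ezh1 with Eed to 0.59 for Suz12 with Kdm6b over the 45 pairs, a description of libraries that share groups and scaling. Outside the 10, the genes most like Kdm6b among 10050 genes with a mean of at least 10 CPM were Cherp (r = 0.91, or 0.85 without the 2 libraries farthest from the Kdm6b median) and Evl (0.89, or 0.83). After removal of the group means these were 0.76 and 0.57. The genes most like Suz12 were Map2k5 (r = 0.84) and Foxo1 (0.80), those most like Ezh2 were Zfp638 (0.83) and Nfx1 (0.81), and those most like Eed were Gpr6 (0.87) and Crot (0.78). For Ezh1 they were Lsm11 (0.80) and Phf21b (0.79), for Jarid2 Asxl2 (0.84) and Cep290 (0.82), for Bmi1 Zmym2 (0.82) and Naa15 (0.82), for Rnf2 Smchd1 (0.81) and Xiap (0.79), for Ring1 Tanc2 (0.81) and Nptn (0.77), and for Cbx7 AI854517 (0.74) and Zfp871 (0.74). Each is the highest r of many genes compared over 16 libraries, and no test was made. The check without the 2 libraries farthest from the member's median was also made for the members other than Kdm6b. There r ran from 0.45 for Cbx7 with AI854517 to 0.83 for Ring1 with Nptn.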

How the data were processed

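Per the labels' protocols, striatal RNA was extracted with a lipid tissue kit, made into libraries with SMARTer chemistry and sequenced on an Illumina HiSeq instrument. The authors deposited, for each mouse, raw counts of reads per gene symbol. STAR 2.4.0, HTSeq and DESeq2 are tools named in the submitters' processing notes, along with the build mm10. The sources used here do not give the strand setting or the annotation. Assigned reads were 22.5% to 24.7% of those listed, and 5 summary lines that name no gene were left out. Reads carry no molecular identifiers, so floors cover counting error only.

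The authors also deposited 3 tables of comparisons, per the file headers with a mean normalized signal, a log2 fold change, a test statistic (a score) and p-values per gene, which were quoted only where named.

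Counts were tested with edgeR 4.0.16 in R 4.3.3 by its quasi-likelihood test. Libraries were scaled by TMM, low genes were removed by filterByExpr, and 1 mean per group over 16 libraries left 12 residual degrees of freedom. All tests are two-sided, adjusted by Benjamini-Hochberg over 13563 genes. The p-values measure the spread between the 4 mice per group that the design text states. Log2 CPM used a prior count of 2. Lengths, coordinates and overlaps came from GENCODE M21 (GRCm38, the same build as mm10) and count from 1. The scripts were tested on simulated data.

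The members and lists were chosen with earlier results of these data known. Named genes were the 10 members, listed Polycomb-system genes that were called, the 2 of each list with the lowest p for the virus averaged over genotypes, the 2 genes most like each member, and Foxp2. Marker genes and relatives of the members named beside them, and Eomes and Lhx9, were chosen after their values were seen. Alternatives were DESeq2 1.42.0, limma 3.58.1 with voom, other scalings, no filter, a replicate block, only the libraries compared, and each library left out. A GC correction and a fit without 3 libraries were chosen after seeing the data.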

Additional observations from a re-analysis of the deposited data

Results flagged for a closer look

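In 4 of 40 groups of 4 mice (10 genes in 4 groups), 1 mouse stood apart from the other 3 by Dixon's criterion, which chance meets in about 1 in 20 groups. Suz12, the PRC2 core subunit, was at 41.2 CPM in Con+Foxp2 mouse 1, below the other 3 mice. Ring1, the less expressed PRC1 ligase, was at 16.2 CPM in Con+Foxp2 mouse 3, above the other 3. Eed was at 15.4 CPM in Con+Con mouse 3, below the others, and Ezh1 was at 82.3 CPM in BACHD+Foxp2 mouse 1, above the others.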

How the results depend on the processing

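The Kdm6b difference for the virus averaged over genotypes was lower, and past the threshold, by DESeq2 (adjusted p = 0.00468), limma-voom (0.0261), RLE factors (0.028), library totals (0.0362), no filter (0.0308) and the added GC correction (0.0263). It was lost without the 3 libraries lowest in cortical markers (-0.33, adjusted p = 0.319 by edgeR, 0 of 10 members called), an alternative chosen after seeing the data, which leaves 13 libraries; the cause was not tested. With 1 library left out, Kdm6b ran from -0.42 to -0.34 and the members called from 0 to 1. In the other 6 comparisons 0 members were called under every alternative run.

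The replicate numbers gave no sign of pairing the mice. Of 24 same-number pairs, 2 had a correlation over 0.1 (range -0.17 to 0.10), and 1 library correlated best with its own number. Low correlations cannot exclude a weak factor shared by mice of the same number. With the replicate block Kdm6b was at -0.39 (adjusted p = 0.0479 by edgeR). The block changed no other member's call.

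Of 1400 recomputed member values, 94 changed sign, 1 of them with a size over 0.2 in the fit reported. Suz12 for genotype averaged over viruses was near 0 and turned to -0.00106 (DESeq2), -0.00396 (voom), -0.00112 (RLE), -0.00921 (totals), -0.000758 (no filter), -0.00765 (block) and -0.0686 (without the 3 libraries). For the virus in BACHD mice Ezh1 turned to 0.00278 (DESeq2), 0.0185 (voom), 0.00295 (RLE), 0.00839 (block) and 0.0102 (GC), Rnf2 to -0.0524 (voom) and -0.0206 (GC), and Cbx7 to -0.0699 (without the 3). For the virus in control mice Ring1 turned to -0.0446 (voom) and -0.0596 (without the 3). For the virus averaged over genotypes Jarid2 turned to -0.0137 (voom), -0.0136 (block) and -0.00417 (GC), Ezh1 to -0.0171 and Rnf2 to 0.0349 (without the 3). For BACHD under the control virus Cbx7 turned to -0.0242 (voom), -0.0123 (block) and -0.0449 (GC), and for BACHD under the Foxp2 virus Kdm6b turned to -0.00923 (totals) and -0.012 (GC).

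With 1 library left out, these members changed sign. For the virus in control mice the ranges were -0.194 to 0.000974 (Jarid2), -0.41 to 0.304 (Ring1) and -0.282 to 0.0425 (Bmi1). In BACHD mice they were -0.112 to 0.0799 (Ezh1), -0.0601 to 0.146 (Eed), -0.0679 to 0.254 (Jarid2), -0.23 to 0.174 (Rnf2) and -0.0814 to 0.141 (Cbx7). For BACHD under the control virus they were -0.114 to 0.144 (Ezh1), -0.0142 to 0.348 (Ezh2), -0.143 to 0.0215 (Suz12), -0.124 to 0.0983 (Cbx7) and -0.407 to 0.139 (log2 Ezh1 to Ezh2 ratio). Under the Foxp2 virus they were -0.0161 to 0.135 (Suz12), -0.118 to 0.205 (Jarid2), -0.333 to 0.0829 (Rnf2) and -0.0682 to 0.0696 (Kdm6b). The interaction of Rnf2 ran from -0.176 to 0.235. For the virus averaged they were -0.0791 to 0.0819 (Jarid2), -0.142 to 0.057 (Rnf2), -0.00332 to 0.354 (Ring1) and -0.0201 to 0.143 (Bmi1), and for genotype averaged -0.0419 to 0.088 (Eed), -0.0442 to 0.0513 (Suz12) and -0.129 to 0.0323 (Jarid2).

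Counts of genes called over the whole table depended on the tool. For the virus in control mice they were 31 by edgeR, 79 by DESeq2 and 75 with no filter, and 10 to 46 with 1 library left out. In BACHD mice they were 33, 62 and 53, with 19 from the 8 libraries alone, 6 without the 3 libraries and 9 to 26 with 1 left out. Averaged over genotypes they were 143, 234 and 208, and 102 to 202. For BACHD under the control virus 2 were called (voom, the block and the fit without the 3 libraries called 1), under the Foxp2 virus 8 (DESeq2 15, and 4 to 8 with 1 left out), for the interaction 0 (DESeq2 3, no filter 3, GC 1) and for genotype averaged 5 (no filter 8). Depth limits Ring1 most, at 18 to 54 reads per library.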
